A study of Rattus norvegicus with 12 samples.

Results

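Calcium handling was described through 8 genes, Ryr2, Casq2, Pln, Atp2a2, Slc8a1, Cacna1c, Hrc and Itpr1. All probe sets annotated with one of these symbols and no other were taken, which gave 18 of the 31099 probe sets on the array, for 8 of 14218 named genes. Of the 18, 14 had a signal above the median of all values on at least 3 of the 12 arrays and were tested. The other 4 were too dim: 1 each for Pln, Atp2a2, Slc8a1 and Cacna1c. RNA came from Wistar rats, and the sample titles form 4 groups of 3 arrays. The groups are aorta and valve, each from neonatal and from adult rats, with no treatment or altered allele in any group. The aorta samples were the proximal vessel, the valve samples held both semilunar valves (aortic and pulmonary), and neonatal means within 24 h of birth. Adults are labelled male, and no adult age was used here. Each value is the MAS5 signal of a probe set, a linear fluorescence intensity, so signals are compared between arrays and never between probe sets. Differences are log2 differences between group means with standard errors (SE), from a limma fit to all 12 arrays, and a probe set passed at a Benjamini-Hochberg adjusted p under 0.05 over 18552 probe sets. Nothing says that replicates were separate animals, so p-values measure only the spread between these samples.

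Several arrays went against their labels or stood apart from their group. Tissue entries and titles disagree on 6 arrays, with adult aorta and neonatal valve exchanged. Groups follow the titles, and by them Igf2, a fetal growth factor gene, read 6189 to 20768 on neonatal and 184 to 879 on adult arrays. Xist, the RNA of the inactive X chromosome, read 10998 to 18362 on valve arrays and 5.08 to 297 on aorta arrays, so the signal on adult valve arrays went against the label male. Sex and tissue cannot be told apart here. Transcript coverage also differed by tissue: the ratio of 3' to 5' signal of beta-actin had a geometric mean of 1.66 on aorta and 9.92 on valve arrays (two-sided exact test over all permutations, p = 0.0022, which 6 against 6 cannot go below). Neonatal aorta 2 and 3 lacked the added control RNAs, whose 3' probe sets read 2.52 to 54.6 there. A signal at or below 54.6 is therefore not told from an absent RNA, and no fold is given against a group mean at that level. No label names a batch for neonatal aorta 2 and 3. A fit with a block for these 2 arrays, the control RNA block, leaves neonatal aorta 1 alone to stand for its group. Adult aorta 1 and adult valve 3 stood apart in muscle markers, as described with the results.

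In heart muscle, each beat begins when calcium enters through the L-type channel, whose pore is encoded by Cacna1c, and opens the ryanodine receptor Ryr2 on the sarcoplasmic reticulum. The released calcium had been held by calsequestrin 2 (Casq2) and the histidine-rich calcium binding protein (Hrc). It is pumped back by SERCA2 (Atp2a2), which phospholamban (Pln) restrains, and leaves the cell through the sodium-calcium exchanger Slc8a1. Itpr1 encodes the inositol trisphosphate receptor, a release channel of many cells including vascular smooth muscle. Smooth muscle also uses SERCA2, phospholamban, calsequestrin and L-type channels, so most of these genes are not private to cardiomyocytes.

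The stretches just upstream of 4 of the genes are shown because their signals differed in unlike ways across the groups. Casq2, Ryr2 and Pln were bright on neonatal valve arrays, and Itpr1 was brighter on adult arrays. Each is the 250 bases before the gene's annotated start in RefSeq (rat build GRCr8), which held all 8 genes, 5′ to 3′ on the gene's strand. Capitals mark a match to the MEF2 motif, the A/T-rich sequence bound by a family of muscle transcription factors. Ryr2 lies at chr17:63081277-63081526 (plus strand), Casq2 at chr2:192214306-192214555 (plus), Pln at chr20:33172244-33172493 (plus) and Itpr1 at chr4:142743190-142743439 (plus).
Ryr2: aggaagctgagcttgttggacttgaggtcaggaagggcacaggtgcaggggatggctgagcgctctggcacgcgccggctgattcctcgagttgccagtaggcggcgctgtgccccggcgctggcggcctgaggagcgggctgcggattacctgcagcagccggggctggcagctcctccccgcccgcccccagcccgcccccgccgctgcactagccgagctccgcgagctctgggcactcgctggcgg
Casq2: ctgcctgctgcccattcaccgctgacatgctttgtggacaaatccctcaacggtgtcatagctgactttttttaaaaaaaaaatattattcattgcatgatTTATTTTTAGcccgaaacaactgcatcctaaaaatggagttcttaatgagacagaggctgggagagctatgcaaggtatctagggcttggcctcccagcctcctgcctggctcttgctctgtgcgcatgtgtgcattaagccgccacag
Pln: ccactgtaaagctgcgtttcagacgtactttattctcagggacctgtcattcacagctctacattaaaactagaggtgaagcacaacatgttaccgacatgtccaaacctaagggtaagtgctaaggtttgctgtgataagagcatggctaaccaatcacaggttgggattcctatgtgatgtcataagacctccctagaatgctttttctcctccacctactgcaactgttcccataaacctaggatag
Itpr1: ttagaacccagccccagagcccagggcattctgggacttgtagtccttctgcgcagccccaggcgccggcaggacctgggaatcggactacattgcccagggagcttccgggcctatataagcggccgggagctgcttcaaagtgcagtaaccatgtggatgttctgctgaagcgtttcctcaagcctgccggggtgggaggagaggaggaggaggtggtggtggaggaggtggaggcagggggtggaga

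The windows differed in base composition. G and C made up 72% of the Ryr2 window, with 23 CpG sites, and 80% of that of Atp2a2, with 45. The windows of Casq2 (46.4%, 5 CpG) and Pln (44%, 3 CpG) were poorer, against medians of 51.2% and 5 over all 33469 windows of this length. Of the 8 genes, Casq2 alone held a MEF2 match in its window, 149 bases before the start, and 2.96% of all windows hold one. The E-box CANNTG was found in 7 of 8 windows, all but that of Hrc, and in 65.5% of all windows. GGAATG, the motif of TEAD factors, was found in the Cacna1c window only, 109 bases before the start, and in 12.1% of all windows. Neither AGATAA, a motif of GATA factors, nor the CArG box was found in the 8 windows (10.3% and 1.5% of all). Both strands were searched, and a match is a description of letters only.

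The release channel gene Ryr2 was read by 2 probe sets, both bright on neonatal valve arrays. On 1382088_at the signals were 1781, 947 and 2183 in neonatal aorta and 219, 796 and 1264 in adult aorta. They were 6741, 7245 and 5199 in neonatal valve and 1162, 5462 and 97.0 in adult valve. The neonatal valve arrays lay above every aorta array, while the adult valve arrays spread over most of the range of the data. The neonatal valve exceeded the neonatal aorta by 2.04 ± 1.14 in log2, which did not pass in the limma fit (adjusted p = 0.19). Of the tested probe sets 13.3% rose in this comparison and 19.3% fell, 32.6% in all.

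The other Ryr2 probe set, 1382775_at, separated the neonatal tissues further. Its signals were 192, 19.4 and 119.9 in neonatal aorta and 83.6, 61.4 and 164 in adult aorta, against 1555, 4849 and 1332 in neonatal valve. In adult valve they were 335, 2423 and 8.58, the last of these at the level of an absent RNA. The rise from neonatal aorta to neonatal valve was 4.82 ± 1.61 in log2 and passed (adjusted p = 0.04). The lowest aorta array was itself at the absent level, so the size is not an exact fold. The call was lost without any 1 of neonatal aorta 1, 2 or 3 or neonatal valve 1, 2 or 3 (adjusted p = 0.054 to 0.15, log2 difference 3.83 to 5.48). A block for replicate number lost it too (adjusted p = 0.058). With the control RNA block, which leaves neonatal aorta 1 alone in its group, the difference was 3.49.

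Casq2, which stores calcium inside the reticulum next to the ryanodine receptor, read above 1280 on 11 of 12 arrays by both of its probe sets. On 1368988_at the signals were 3914, 3419 and 3597 in neonatal aorta and 3531, 4456 and 7911 in adult aorta. They were 12184, 9329.8 and 9867 in neonatal valve and 3966, 6196 and 102 in adult valve. Every neonatal valve array lay above every other array, and adult valve 3 lay far below all 11. The neonatal valve stood 1.51 ± 1.15 above the neonatal aorta (adjusted p = 0.34), and the adult valve 2.93 ± 1.15 below the neonatal valve (-2.93, adjusted p = 0.13). Neither passed, although in both comparisons no array of one group fell within the other's range.

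The second Casq2 probe set, 1387401_at, gave flatter signals: 3463, 3450.3 and 3391 in neonatal aorta, 3031, 3185 and 5699 in adult aorta. In neonatal valve they were 5229, 4523.5 and 3858, and in adult valve 1282, 2646 and 115. All adult valve arrays lay below all other arrays. The gene's only call was here, between the adult tissues, at -2.38 ± 0.85 in log2, 5.20-fold lower in the valve (adjusted p = 0.046). In that comparison 37.1% of all tested probe sets passed, 17.3% higher and 19.9% lower. The call was lost without any 1 of adult aorta 1, 2 or 3 (adjusted p = 0.059 to 0.12). Array weights, median centring, no filter, no trend, a block for replicate number or only the adult arrays in the fit also lost it (adjusted p = 0.053 to 0.16). The control RNA block lost it too. Without adult valve 3 alone it was -1.05 (adjusted p = 0.04), and it passed at -1.21 (adjusted p = 0.022) when adult valve 3 and adult aorta 1 were both left out, a choice made after seeing the data, under which 36.4% of tested probe sets passed.

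Hrc, which binds calcium in the reticulum lumen and contacts both the pump and the release complex, had its highest single array in the adult aorta. Its signals were 738, 661 and 595 in neonatal aorta and 4971, 664 and 1535 in adult aorta. In neonatal valve they were 2087, 1699.7 and 714, and in adult valve 1177, 3676 and 121. The high adult aorta array was number 1, which read 7.49-fold above adult aorta 2 and 3.24-fold above adult aorta 3. The summed signal of 9 skeletal muscle markers was 162690 on that array and 4349 to 36790 on the other 11, and its part in the Hrc signal was not tested. No comparison of Hrc passed (largest difference between groups 1.38 ± 1.05, adult over neonatal aorta, adjusted p = 0.48).

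Itpr1 read higher on adult than on neonatal arrays of both tissues. Its signals were 1685, 1319 and 1301 in neonatal aorta and 1709, 5419 and 6286 in adult aorta. In neonatal valve they were 1681, 1788 and 1508, and in adult valve 6084, 3995 and 3461. All neonatal arrays lay between 1301 and 1788, and 5 of 6 adult arrays at 3460.6 or above, with adult aorta 1 among the neonatal arrays. Adults were 2.72-fold higher in the aorta (1.44 ± 0.42, adjusted p = 0.06) and 2.65-fold higher in the valve (1.40 ± 0.42, adjusted p = 0.057), and neither passed. In these comparisons 7.31% of tested probe sets passed in the aorta (1.94% higher, 5.37% lower) and 9.21% in the valve (4.00% higher, 5.21% lower). Without adult aorta 1 the aortic difference was 2.03 and passed (adjusted p = 0.00071), where 13.4% of all tested probe sets passed. With adult valve 3 left out as well, both passed, at 2.03 (adjusted p = 0.00026) and 1.58 (adjusted p = 0.0012), where 19.0% and 15.4% of all tested probe sets passed. The aortic difference did not pass without any other single aorta array (adjusted p = 0.12 to 0.18) or with a block for replicate number (adjusted p = 0.099). The valve difference did not pass without any 1 valve array (adjusted p = 0.078 to 0.17). With only the groups compared in the fit, the valve difference passed (adjusted p = 0.022) and the aortic did not (adjusted p = 0.15). The tissues did not differ detectably at either age: the interval of valve minus aorta was -0.70 to 1.13 in neonates and -0.74 to 1.09 in adults.

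**Figure D1:**
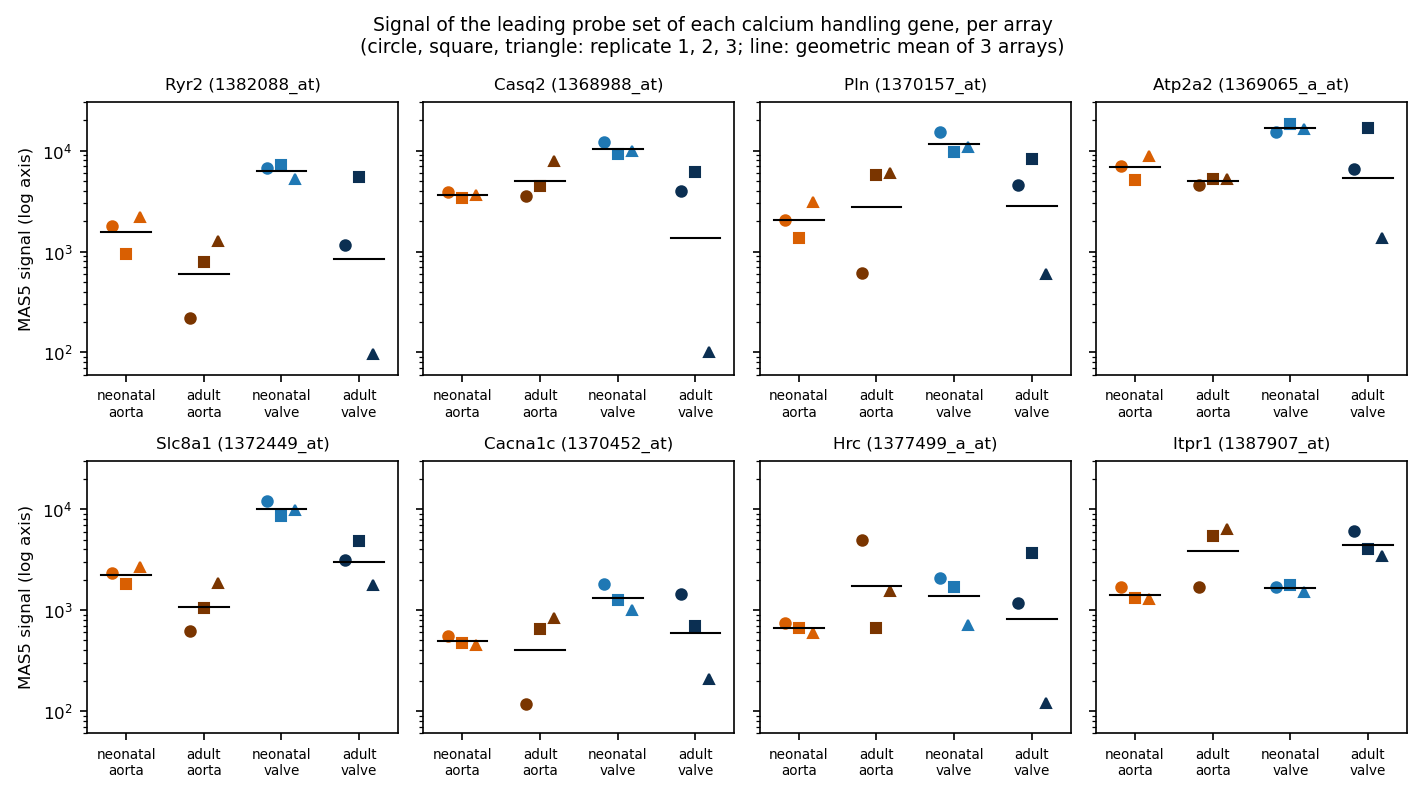
MAS5 signal on a log axis of the brightest probe set of each of the 8 genes on the 12 arrays, by group, with circle, square and triangle for replicate 1, 2 and 3 and a line at the geometric mean of 3 arrays. Neonatal valve arrays are the highest group for Ryr2, Casq2, Pln, Atp2a2, Slc8a1 and Cacna1c, adult valve 3 (dark blue triangle) lies at the bottom for most genes, and Itpr1 is at 3460.6 or above on 5 of 6 adult arrays.

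Pln, the inhibitor of the calcium pump, rose between neonatal tissues on 1 of its 2 bright probe sets. On 1388876_at the signals were 858, 495 and 1735 in neonatal aorta and 558, 4020.4 and 4828 in adult aorta. They were 13964, 7176 and 11441 in neonatal valve and 6919, 9932 and 496 in adult valve. The neonatal valve was 11.6-fold above the neonatal aorta (3.53 ± 1.08 in log2, adjusted p = 0.027). That call was lost without neonatal aorta 1 or 2 or neonatal valve 1 or 3 (adjusted p = 0.07 to 0.096), and with a block for replicate number. With the control RNA block, which leaves neonatal aorta 1 alone in its group, the difference was 3.61. By 1370157_at the signals were 2076, 1356 and 3106 in neonatal aorta and 619, 5746 and 6059 in adult aorta, against 15154, 9651 and 10856 in neonatal valve and 4561, 8296 and 598 in adult valve. Its neonatal difference was 2.50 ± 0.98 (adjusted p = 0.072). On both probe sets adult aorta 2 and 3 lay above all neonatal aorta arrays, and adult aorta 1 lay near or below the lowest of them. In the reported fit the adult aorta exceeded the neonatal by 0.43 on 1370157_at (adjusted p = 0.84) and 1.29 on 1388876_at (adjusted p = 0.52). Leaving out adult aorta 1 and adult valve 3, a choice made after seeing the data, the differences were 1.52 (adjusted p = 0.015) and 2.29 (adjusted p = 0.0075). Under that choice 19.0% of all tested probe sets passed, against 7.31% in the reported fit. The third probe set, 1384689_at, read 8.65 to 100.4 throughout.

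Atp2a2, the SERCA2 pump gene, makes a splice form of heart and slow muscle (SERCA2a) and one found in most cells (SERCA2b). Which form each probe set reads is not given in the sources used here, and the probe sets did not move alike. On 1369065_a_at the signals were 6981, 5161 and 8810.3 in neonatal aorta and 4514, 5212 and 5280.4 in adult aorta. In neonatal valve they were 15327, 18566 and 16530, and in adult valve 6634, 16876 and 1350.4. The adult valve arrays were spread widely, adult valve 2 reading within the neonatal valve and adult valve 3 below every aorta array. On 1370426_a_at the adult valve read 6933, 4252 and 3884, and the other 9 arrays lay between 3096 and 6344, so that no array stood apart. None of the 4 tested probe sets of Atp2a2 passed in any comparison. For 1370426_a_at the intervals were narrow enough to bound the differences, from -0.27 to 1.00 for age in aorta, -0.38 to 0.88 for age in valve and -0.48 to 0.79 between neonatal tissues. The values for 1369065_a_at were -0.45 ± 0.66 for age in aorta, -1.65 ± 0.66 for age in valve and 1.30 ± 0.66 between neonatal tissues.

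The 2 dimmer tested probe sets of the pump gene lay between these patterns. On 1398862_at the neonatal aorta read 967 to 1273 and the neonatal valve 2021 to 2965, and adult aorta 1 (1017) lay apart from adult aorta 2 (2643) and 3 (3076). Its rise with age in the aorta was 0.81 ± 0.49 in the reported fit (adjusted p = 0.35). Without adult aorta 1 and adult valve 3, a choice made after seeing the data, it passed at 1.31 (adjusted p = 0.0025), where 19.0% of all tested probe sets passed. On 1391771_at all 12 signals lay between 113 and 397, with neonatal valve (181 to 397) above neonatal aorta (113 to 163). That difference, 0.73 ± 0.34, did not pass in the reported fit (adjusted p = 0.13). It passed with quantile normalization (adjusted p = 0.036), median centring (adjusted p = 0.027) and array weights (adjusted p = 0.033). The fifth, 1375164_at, read 16.6 to 73.7 and was not tested.

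Slc8a1, the exchanger that carries calcium out of the cardiomyocyte, gave 3 of the 6 calls. Its signals on 1372449_at were 2310.0, 1804 and 2648 in neonatal aorta and 626, 1046 and 1837 in adult aorta. They were 12020.0, 8626 and 9849.9 in neonatal valve and 3160, 4852 and 1772 in adult valve. The neonatal valve arrays lay above all others, and adult valve 1 and 2 above all aorta arrays. Slc8a1 was 4.52-fold higher in neonatal valve than in neonatal aorta (2.18 ± 0.41, adjusted p = 0.0027), 3.35-fold lower in adult than in neonatal valve (-1.74 ± 0.41, adjusted p = 0.026) and 2.83-fold higher in adult valve than in adult aorta (1.50 ± 0.41, adjusted p = 0.015). The adult minus neonatal difference in the aorta, -1.07 ± 0.41, did not pass (adjusted p = 0.14).

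These Slc8a1 calls differed in how far they rested on single arrays. The neonatal difference between tissues passed without any 1 array of its groups (2.03 to 2.30, adjusted p = 0.0071 to 0.015). With the control RNA block, which leaves neonatal aorta 1 alone in its group, that difference was 2.12. The fall with age in the valve passed without adult valve 2 and was lost without adult valve 1 or 3 or neonatal valve 1, 2 or 3 (adjusted p = 0.056 to 0.094). The adult difference between tissues was lost without adult valve 2 (1.15, adjusted p = 0.058) and when only the adult arrays were fitted (adjusted p = 0.079). In order of level the groups ran neonatal valve, adult valve, neonatal aorta, adult aorta, with geometric means of 10070, 3006, 2226 and 1064. Adult valve against neonatal aorta was not tested. The other probe set of the gene, 1370588_a_at, read 2.45 to 122 and was not tested.

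Cacna1c, which encodes the pore of the L-type channel in heart and smooth muscle, had signals on 1370452_at of 559, 469.8 and 452 in neonatal aorta and 116, 652 and 829 in adult aorta. In neonatal valve they were 1810.4, 1266 and 1005, and in adult valve 1455, 697 and 208. Neonatal valve arrays lay above all aorta arrays. No comparison passed (neonatal valve over neonatal aorta 1.43 ± 0.75, adjusted p = 0.17). The dim probe set 1370451_a_at ran the other way by tissue, aorta arrays reading 80.1 to 227 and valve arrays 8.83 to 56.6, and was not tested.

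Across the 14 tested probe sets, 3 passed between neonatal tissues, all higher in the valve, against 13.3% of all tested probe sets higher and 19.3% lower. All 14 fitted differences in that comparison were positive, with a median of 1.36 against -0.09 for all tested probe sets, and for 11 of the 14 every valve array lay above every aorta array, which held for 26.2% of all tested probe sets. Between neonatal and adult valve, 1 passed (Slc8a1, lower in the adult), where 9.21% of all tested probe sets did. There 12 of 14 differences were negative and the median was -1.67 against -0.04, sizes that rested in part on adult valve 3. Without adult valve 3 and adult aorta 1, a choice made after seeing the data, the valve differences ran from -1.36 (Slc8a1) to 1.58 (Itpr1). Pln 1388876_at went from -1.69 to -0.34 and Hrc from -0.76 to 0.61. Between neonatal and adult aorta none passed by limma, where 7.31% of all did, with 2 at an unadjusted p under 0.05 (Slc8a1, Itpr1) and a median of 0.38 against -0.08. Between adult tissues 1 was higher and 1 lower in the valve, where 17.3% and 19.9% of all were, and the median was 0.07 against -0.05. These comparisons share arrays, each group entering more than 1 of them.

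The number of passing members between neonatal tissues moved with the samples in the fit. It was 9 without adult valve 3 and adult aorta 1, arrays that are in neither group (45.4% of all tested probe sets then passed). It was 10 when only the 6 neonatal arrays were fitted, where 48.6% passed. Casq2 1368988_at (1.51) and Pln 1370157_at (2.50) passed in both of these fits, at adjusted p = 0.00075 and 0.00024 in the first and 0.00018 and 0.00048 in the second. The control RNA block leaves neonatal aorta 1 alone in its group, so no count is given for it here.

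**Figure D2:**
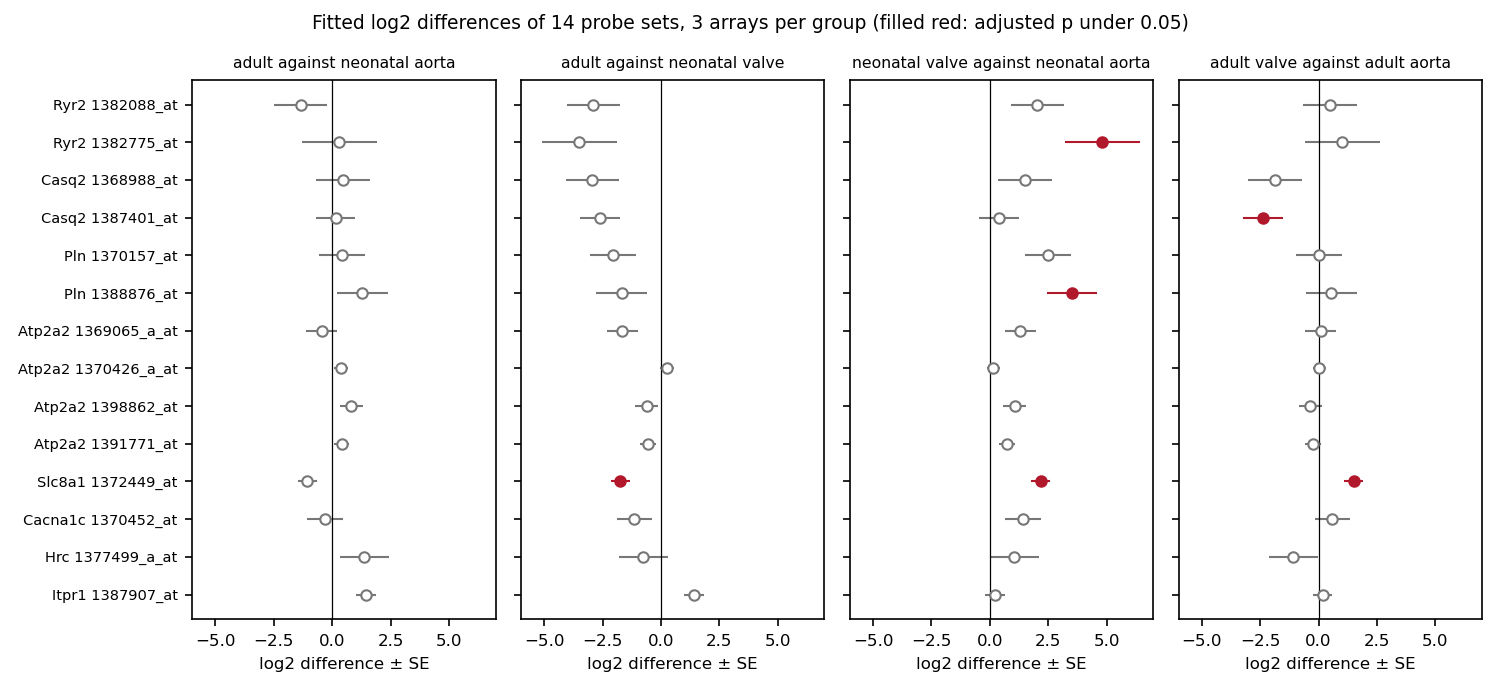
Fitted log2 difference with its SE for the 14 tested probe sets in 4 comparisons of 3 arrays against 3, with filled red points where the adjusted p is under 0.05. All points lie right of 0 in the comparison of neonatal tissues, 12 of 14 lie left of 0 for age in the valve, and 6 points in all are filled.

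Whether the age difference was itself different in valve and aorta was tested as an interaction. None of the 14 probe sets passed by limma, with 1 at an unadjusted p under 0.05, and 0.0593% of all tested probe sets passed. All 14 differences of differences were negative, with a median of -1.48 against 0.06 for all tested probe sets. The smallest adjusted p was that of Casq2 1387401_at (-2.77 ± 1.20, adjusted p = 0.40). For Pln the values were -2.48 and -2.98, and for Itpr1 -0.04 (interval -1.33 to 1.25). Without adult valve 3 and adult aorta 1 none passed either (Pln 1370157_at -2.44, adjusted p = 0.071, Casq2 1368988_at -1.77, adjusted p = 0.075). The shared negative sign did not hold when single arrays were left out. Without adult valve 3 alone, Ryr2 1382088_at (0.024), Atp2a2 1370426_a_at (0.046) and Itpr1 (0.13) were positive.

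Probe sets of 1 gene can be read against each other only in how they vary over the arrays. Over the 12 arrays, which share scaling and, by tissue, coverage, the log2 signals of the bright pairs correlated at r = 0.88 for Ryr2, 0.94 for Casq2 and 0.95 for Pln. The Atp2a2 probe sets did not form such a group. There 1369065_a_at correlated at 0.0038 with 1370426_a_at and at 0.64 with 1398862_at, while 1370426_a_at and 1398862_at correlated at 0.69. The bright and dim probe sets correlated at 0.27 for Slc8a1 and 0.036 for Cacna1c. The pairs that varied together still differed in size: between neonatal tissues Ryr2 gave 2.04 and 4.82, and Casq2 1.51 and 0.39.

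**Figure D3:**
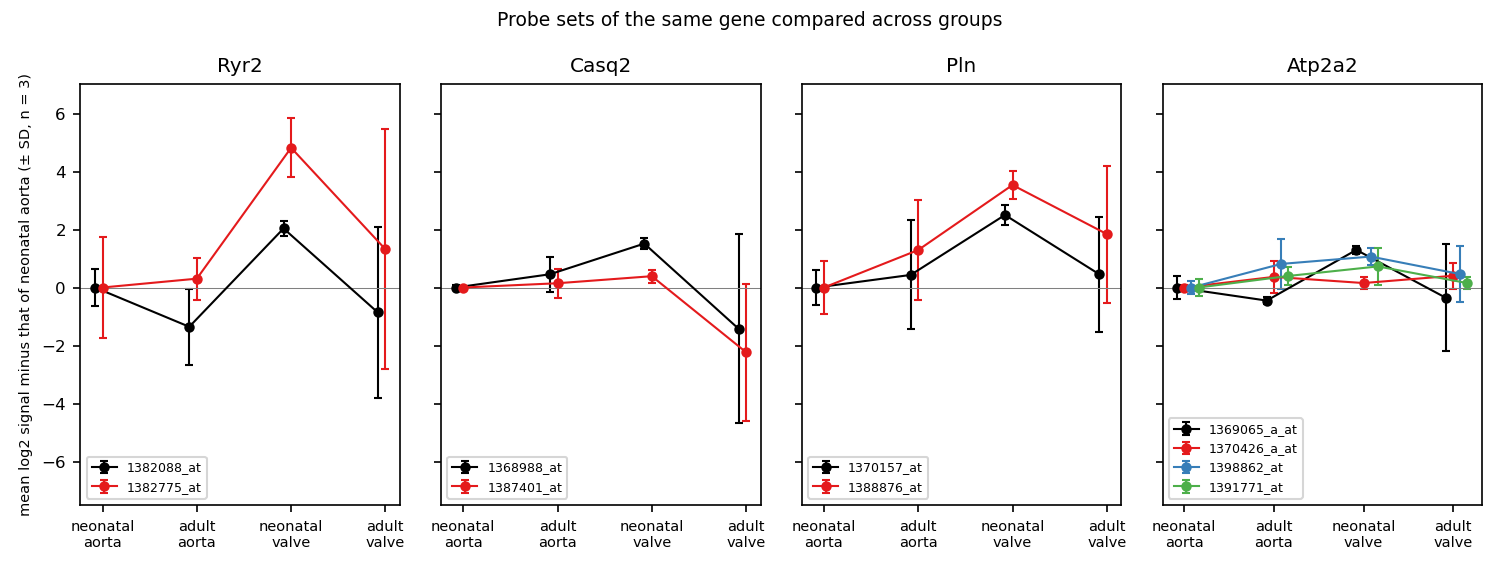
Mean log2 signal of each tested probe set minus its own neonatal aorta mean, in the 4 groups, with SD of 3 arrays, for the 4 genes with more than 1 tested probe set. Both lines of Casq2 and of Pln lie on the same side of 0 in each group, those of Ryr2 do so in neonatal valve (4.82 and 2.04) but lie on opposite sides in adult aorta (0.30 and -1.35) and adult valve, and the Atp2a2 lines cross.

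Heart muscle markers were compared with the members because dissected vessel and valve can hold adjoining tissue. In bulk RNA, fewer cells of a type and less RNA per cell cannot be told apart. The 13 measured cardiomyocyte markers summed to 56955 to 84045 in neonatal aorta and to 133350 to 151410 in neonatal valve. On adult aorta 2 and 3 the sum was 812 and 1224, with 8 of 13 at or below the absent level on each. Tnnt2, cardiac troponin T, read 6707 to 11152 in neonatal aorta, and 107, 12.2 and 2.15 in adult aorta. On adult aorta 1 the sum was 67918, and 4 of 13 markers (Tnni3, Myh6, Myl2 and Nppa) were at or below the absent level. The others ran from 65.1 (Myl7) to 29462 (Myl3). Among these, Ttn, titin of all striated muscle, read 22981, Actn2 14070 and Tnnc1 413.

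Several members stayed bright on the arrays where most of these markers were at the absent level. On adult aorta 2 and 3, Casq2 1368988_at read 4456 and 7911 and Pln 1370157_at 5746 and 6059, both above all neonatal aorta arrays. Itpr1 (5419 and 6286) and Atp2a2 1398862_at (2643 and 3076) did so too. Other probe sets of the same genes did not: Casq2 1387401_at read 3185 and 5699, the first of them below all neonatal aorta arrays (3391 to 3463), and Atp2a2 1369065_a_at read 5212 and 5280.4, within theirs (5161 to 8810.3). The summed signal of 9 smooth muscle markers was 125680 and 164420 on those arrays and 38202 to 56763 in neonatal aorta. On adult aorta 1 the smooth muscle sum was 32078. All tested member probe sets except Hrc (4971) and Ryr2 1382775_at (83.6) read lower there than on both adult aorta 2 and 3. Ryr2 1382088_at (796 and 1264) and Slc8a1 (1046 and 1837) were not above the neonatal aorta range on adult aorta 2 and 3. The part of either muscle in the members' aortic signals was not tested.

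In the valve, the cardiomyocyte sum was 20669 on adult valve 1, 123930 on adult valve 2 and 6276 on adult valve 3, and the smooth muscle sum 72245, 45067 and 10968 (14245 to 21062 in neonatal valve). Endothelial markers were at their highest sum on adult valve 3, 33791. The beta-actin coverage ratio on adult valve 1, 2 and 3 was 13.99, 10.6 and 12.7, and that of GAPDH 3.88, 2.78 and 5.13, where adult valve 3 was the highest of all valve arrays. Adult valve 3 also had the highest signal of the added control RNAs, with 12306 for the 3' probe set of dap against 3506 to 7873 on the other valve arrays. The part of these in the low member signals on adult valve 3 was not tested.

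**Figure D4:**
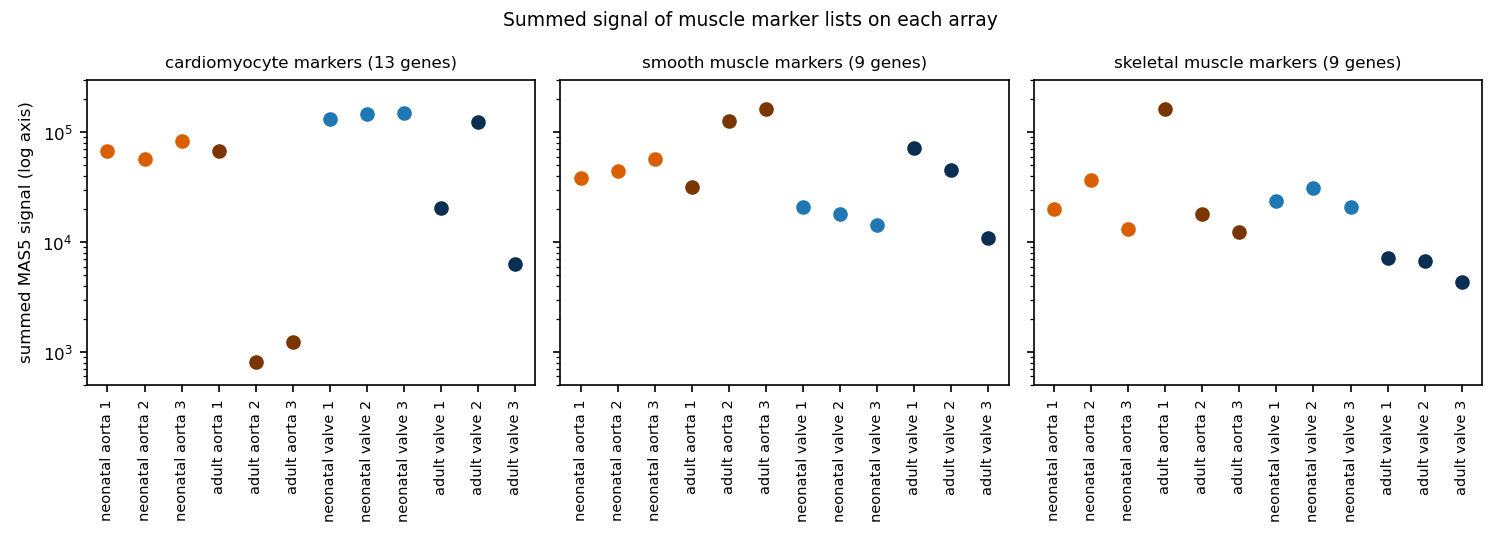
Summed MAS5 signal (log axis) of cardiomyocyte, smooth muscle and skeletal muscle markers on each array, with colours for the 4 groups. The cardiomyocyte sum falls to 812 and 1224 on adult aorta 2 and 3 and spans 6276 to 123930 on adult valve arrays, and the skeletal sum peaks at 162690 on adult aorta 1.

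The members divided by how far they fell on adult valve 3. Adult valve 2 over adult valve 3 was 60.7-fold for Casq2 1368988_at, 56.3-fold for Ryr2 1382088_at, 30.4-fold for Hrc and 13.9-fold and 20.0-fold for the bright Pln probe sets. It was 12.5-fold for Atp2a2 1369065_a_at, 3.36-fold for Cacna1c, 2.74-fold for Slc8a1, 1.15-fold for Itpr1 and 1.09-fold for Atp2a2 1370426_a_at. The 10 cardiomyocyte markers above the absent level on both arrays ran from 1.72-fold to 169-fold with a median of 17.1-fold, and the 9 smooth muscle markers from 1.61-fold to 34.2-fold with a median of 8.53-fold. Myh7, Myl4 and Myl7, left out because adult valve 3 was at the absent level, read 2890, 8240 and 14925 on adult valve 2. With them included, the cardiomyocyte median over 13 markers was 27.4-fold, which is not an exact size. The median over all tested probe sets was 0.993. Adult valve 1 over adult valve 3 was 38.8-fold for Casq2 1368988_at, 11.97-fold for Ryr2 1382088_at and 7.005-fold for Cacna1c, at marker medians of 2.28-fold for cardiomyocytes (9 genes) and 15.9-fold for smooth muscle. These are single arrays with no replicate, and the part of each cell type was not tested.

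**Figure D5:**
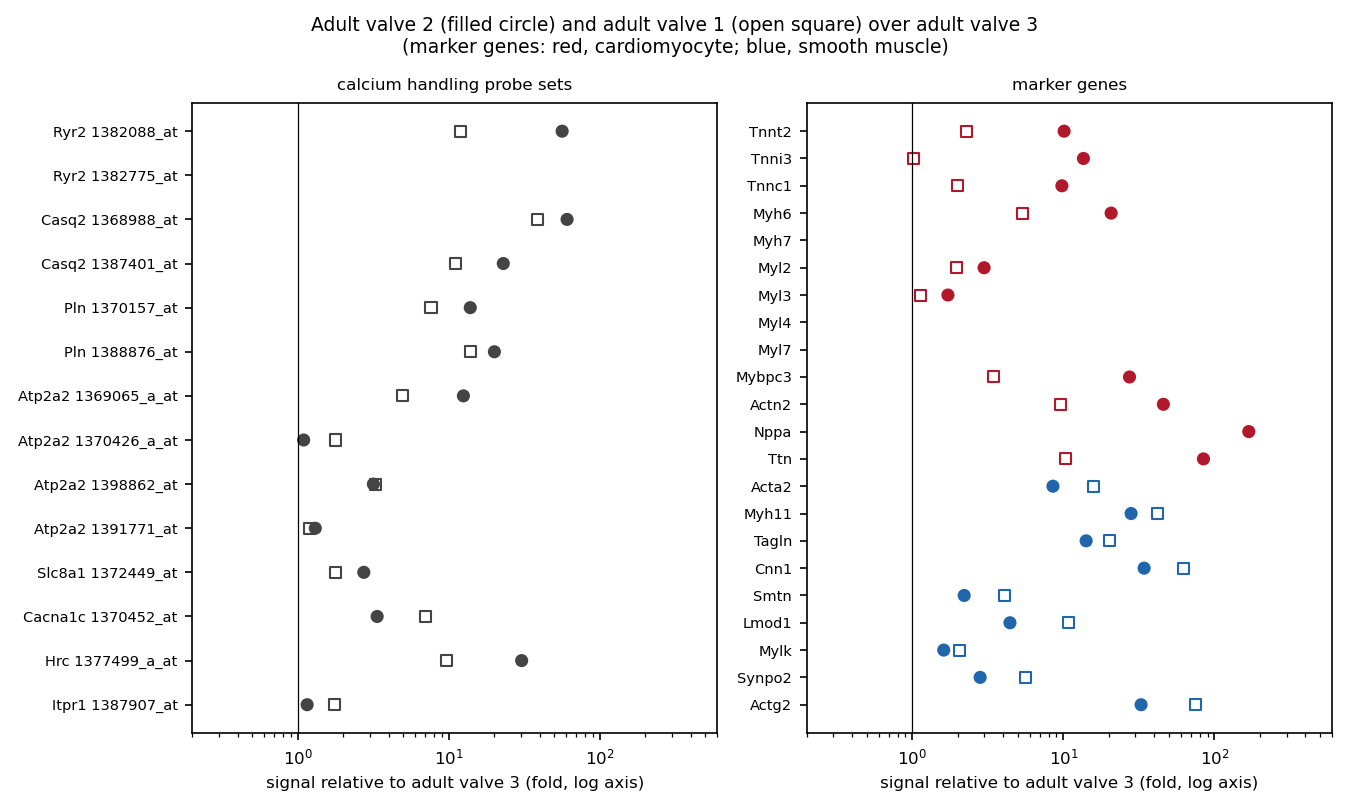
Signal on adult valve 2 (filled circle) and adult valve 1 (open square) relative to adult valve 3 on a log axis, for the 14 tested probe sets (left) and the muscle markers (right, red for cardiomyocyte and blue for smooth muscle). Points with either array at or below 54.6 are left out; Casq2 and Ryr2 reach 60.7-fold and 56.3-fold, and Itpr1 lies near 1.

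The wider calcium machinery was described with a list of 99 other genes, of which 89 were measured and 68 tested. In the aorta 1 rose with age and 3 fell (1.47% and 4.41% of those tested, against 1.94% and 5.37% of all tested probe sets). Asph, whose locus also encodes junctin and junctate of the reticulum, rose by 1.92 ± 0.49 in log2 (adjusted p = 0.039). The plasma membrane pump Atp2b1 (-0.69 ± 0.17, adjusted p = 0.033), the receptor-operated channel Trpc6 (-1.84 ± 0.49, adjusted p = 0.044) and Cacna1g, the pore of a T-type channel, fell. Cacna1g went from a geometric mean of 264 to 29.9, which is at the absent level.

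In the valve 1 gene of the list rose with age and 3 fell (1.47% and 4.41% of those tested, against 4.00% and 5.21% of all tested probe sets). Stim1, the sensor of reticulum calcium that opens store-operated entry, rose by 1.45 ± 0.31 (adjusted p = 0.018). Its arrays read 402 to 949 in neonatal and 1190.2 to 1809 in adult valve. Cacna1g fell here too, from a geometric mean of 267 to 34.6 (adjusted p = 0.049), as did Ppp1ca, a catalytic subunit of protein phosphatase 1 (-0.96 ± 0.27, adjusted p = 0.046). Casq1, the skeletal muscle calsequestrin, fell by 4.05 ± 1.12 (-4.05, adjusted p = 0.046), from 969 to 1954 down to 36.7 to 138. On adult aorta 1 Casq1 read 13669, against 292 and 566 on adult aorta 2 and 3, beside the skeletal marker sum given above.

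Between tissues more of the list passed, as did more of the array. In neonates 8 were higher in the valve and 14 lower (11.8% and 20.6%, against 13.3% and 19.3%), and in adults 5 and 16 (7.35% and 23.5%, against 17.3% and 19.9%). Akap7, an anchor that holds protein kinase A near phospholamban, was higher in the valve in neonates (1.69 ± 0.23, adjusted p = 0.00045) and adults (2.75 ± 0.23, adjusted p = 4.1e-05). Calr, the reticulum chaperone and calcium buffer calreticulin, was lower at both ages (-2.02 ± 0.26, adjusted p = 0.00036, and -1.57 ± 0.26, adjusted p = 0.0012). Gnas, the stimulatory G protein of beta-adrenergic signalling, was also lower at both (-1.81 ± 0.29, adjusted p = 0.0011, and -2.17 ± 0.29, adjusted p = 0.00038). The receptor isoform Itpr2 was lower in neonatal valve (-1.79 ± 0.38, adjusted p = 0.0048), where Itpr1 differed by 0.22 ± 0.42 (adjusted p = 0.73). Ppp3cb, a catalytic subunit of calcineurin, was higher there (1.01 ± 0.20, adjusted p = 0.0037). In adults Ppp1r1a, a phosphatase inhibitor, was lower in the valve (-2.85 ± 0.57, adjusted p = 0.0032). The pump Atp2b4 had geometric means of 419 and 463 in aorta and 43.8 and 47.3 in valve, the latter at the absent level, and Camk2g, a calmodulin kinase subunit, had 847 in adult aorta and 33.2 in adult valve. Coverage differed between these tissues as given above, and its part was not tested.

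The genes whose log2 signal over the 12 arrays was most like each member were taken from 10410 compared, by Pearson's r, as a description. Ryr2 1382088_at was nearest to another member, Atp2a2 1369065_a_at (r = 0.96), followed by Sipa1l2 and Zfp955a. The nearest to Casq2 was Popdc2 (0.95), to Pln Cacnb2 (0.94), the L-type channel's beta subunit, to Slc8a1 Arhgap35 (0.99), to Cacna1c Slc4a3 (0.98) and to Hrc Pde4dip (0.94). Itpr1 was nearest to Crebl2 and Fgl2 (0.97 each), and its r with the other 7 members ran from -0.30 to 0.17. The arrays share tissue, age, scaling and the single arrays that stand apart, so the values carry no test.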

How the data were processed

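Intensity values, the linear MAS5 signal of each probe set, are as deposited by the authors, who used Affymetrix Expression Console, per the submitters' processing notes. The sources used here give no program version or scaling target. RNA was isolated with Trizol and RNeasy and labelled with an Affymetrix in vitro transcription kit, per the labels' protocols. All arrays share a trimmed mean (2% cut at each end) of 500.1 to 500.2. From these values, 57 control probe sets were left out, signals below 1 were set at 1, and log2 was taken without further normalization. Of 31042 probe sets, 18552 (59.8%) exceeded 172, the median, on at least 3 arrays and were tested. Gene names came from the platform's probe table, where 20826 probe sets have 1 symbol, 436 several and 9780 none.

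A mean per title group was fitted with limma 3.58.1 in R 4.3.3 (trend, two-sided, Benjamini-Hochberg over all tested probe sets), and the script was tested on simulated data. The small number of arrays, 3 in a group, limits precision, and within groups Spearman's rho was 0.813 to 0.959. The members and the gene lists were chosen with earlier results of these data known. Named genes were all member probe sets, for each comparison the listed calcium genes with the 6 smallest adjusted p among which those that passed are given, and for each member the genes most correlated with its brightest probe set. Same-numbered arrays of different groups did not deviate together (r from -0.31 to 0.24), so replicate numbers were not used as pairs. Alternatives changed the filter, scaling, offset, trend, weights, blocks, grouping and single arrays. Promoter windows came from RefSeq, build GRCr8, which may not be the build behind the probe annotation.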

Additional observations from a re-analysis of the deposited data

How the results depend on the processing

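Of 1372 values of single probe sets under alternatives, 1284 kept their direction where called and their side of the threshold, 46 came to pass, 38 no longer passed and 4 reversed, and another 78 changed sign without passing in either setting (counted among the 1284). Counts of passing calcium handling probe sets, 0 for age in aorta, 1 for age in valve, 3 between neonatal and 2 between adult tissues, moved as follows, in that order where several are given. Shares of all tested probe sets that passed under the same setting are given in parentheses, against 7.31%, 9.21%, 32.6% and 37.1% in the reported fit. With array quality weights they were 4, 2, 9 and 1 (25.7%, 15.1%, 52.3% and 41.3%). With groups by the tissue entry they were 3, 2, 0 and 1 (32.6%, 37.1%, 7.31% and 9.21%), and Slc8a1 reversed in each, with 2.18, 1.50, -1.07 and -1.74 under the same names, because that grouping exchanges adult aorta and neonatal valve. Without adult valve 3 and adult aorta 1, chosen after seeing the data, they were 4, 4 and 9 for the first comparisons (19.0%, 15.4% and 45.4%). Age in valve gave 2 with no filter (4.56%) and 2 with only the groups compared (7.28%), which gave 10 between neonatal (48.6%) and 0 between adult tissues (19.7%). Between neonatal tissues the count was 5 with quantile normalization (30.8%) and 5 with arrays centred on their median (34.7%). No count is given there for the control RNA block or for only the arrays that held those controls. Both leave neonatal aorta 1 alone in its group. Between adult tissues it was 1 with centring (40.7%), 1 with the control RNA block (33.8%) and 1 with no intensity trend (36.5%). The replicate block, on numbers that do not pair the arrays, gave 1 between neonatal and 1 between adult tissues (30.8% and 35.7%). Leaving out single arrays gave 0 to 1 for age in aorta (2.32% to 13.4%), the 1 without adult aorta 1 at 13.4%. For age in valve it gave 0 to 5 (3.57% to 8.16%). The 5 came without adult valve 2, where 8.16% of all passed, when both Ryr2 probe sets, Casq2 1387401_at and Atp2a2 1369065_a_at also fell. Single arrays left out gave 1 to 2 between neonatal tissues (22.1% to 27.4%). Between adult tissues they gave 1 to 4 (30.7% to 38%), the 4 without adult valve 3 at 31.8%. The difference of age differences stayed at 0 under every alternative run. The cause of these moves was not tested.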
